A study of Mus musculus with 48 samples.

Results

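Immediate early genes are switched on within minutes of a stimulus, because the factors that drive them are already present and need only be phosphorylated. In kidney they are known to respond to growth factors, hormones, osmotic change and injury. Their mRNAs are short-lived, so a snapshot of their level reflects a recent stimulus more than a long history. The genes described here are the AP-1 subunit genes Fos, Fosb, Jun and Junb, the zinc finger factor genes Egr1, Klf4 and Klf6, the leucine zipper factor gene Atf3, the nuclear protein gene Ier2, and Dusp1, which encodes a phosphatase that shuts off MAP kinases. They were chosen by symbol. Of the 10, 9 were listed in the RNA-seq tables and 8 in the RPF-seq tables, among 12728 and 12622 genes in all. Fosb was listed in neither assay and Ier2 in RNA-seq alone. The other 8 were tested among 11863 genes with a median of at least 0.5 RPKM in both assays.

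The samples were kidneys of male C57BL/6JRj mice aged 11 to 12 weeks, and the groups differ in their timepoint alone. The animals were entrained for 2 weeks to 12 h of light and 12 h of darkness, with lights on at Zeitgeber time ZT00 and off at ZT12. Kidney lysates of 2 mice were pooled, and 2 such pools were taken at each of 12 timepoints from ZT00 to ZT22, 2 h apart. Each of the 24 pools gave 1 RNA-seq library, which measures transcript abundance, and 1 RPF-seq library of ribosome-protected fragments, which measures translation. Values are RPKM on the coding sequence, so levels of different genes can be compared per length. The replicate number of a pool is a name within its timepoint, and the labels do not tie pools with the same number to each other. The study's methods describe collection over 2 daily cycles without saying which pool came from which.

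The RNA-seq libraries held about 10606113 to 34502032 coding-sequence reads and the RPF-seq libraries about 16114574 to 34833759, as worked out from the steps between RPKM values. All 10 listed markers of kidney cell types were present, with a summed level of 6790 to 8439 RPKM in RNA-seq, and none of the 7 adrenal markers was listed. In the annotation of GENCODE vM21 (GRCm38) Fos (ENSMUSG00000021250) lies at chr12:85473890-85477273, Jun (ENSMUSG00000052684) at chr4:95049034-95052222, Junb (ENSMUSG00000052837) at chr8:84974484-84978718, Dusp1 (ENSMUSG00000024190) at chr17:26505590-26562128, Ier2 (ENSMUSG00000053560) at chr8:84661331-84662852 and Klf6 (ENSMUSG00000000078) at chr13:5861482-5870394. The 6 clock genes used to check the time labels were rhythmic in both assays, among them Arntl with a peak at 22.5 h and Dbp at 10.5 h in RNA-seq. The RPF-seq library of ZT04 replicate 2 had 162 genes at 0, against at most 23 in any other library. It stands apart from the rest. The daily curves of Egr1 and Atf3 and the burst counts are also given without it, and the footprint spread of Atf3 without ZT04.

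Promoter sequence is shown for Fos, Junb, Dusp1 and Jun, some of the members whose pools differed. Transient induction of such genes is known to run through sites near the start. No promoter window was on hand for Egr1, whose pools also lay far apart. Each stretch is the 150 bases before the RefSeq start site on GRCm38.p6, 5′ to 3′ on the strand of the gene. Capitals mark exact matches to the cAMP response element (CRE, TGACGTCA) or its core (TGACG, in either direction), and the stretch of Jun holds no exact match. Near matches, such as tgacatca in the stretch of Jun, were not searched for and are not marked.
Fos, chr12:85473740-85473889, plus strand: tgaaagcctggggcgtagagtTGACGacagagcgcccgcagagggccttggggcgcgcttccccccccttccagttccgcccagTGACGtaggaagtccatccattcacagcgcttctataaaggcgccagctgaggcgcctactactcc
Junb, chr8:84978749-84978898, minus strand: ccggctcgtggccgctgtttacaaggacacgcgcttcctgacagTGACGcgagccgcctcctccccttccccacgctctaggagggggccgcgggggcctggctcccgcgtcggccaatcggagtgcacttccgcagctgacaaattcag
Dusp1, chr17:26508473-26508622, minus strand: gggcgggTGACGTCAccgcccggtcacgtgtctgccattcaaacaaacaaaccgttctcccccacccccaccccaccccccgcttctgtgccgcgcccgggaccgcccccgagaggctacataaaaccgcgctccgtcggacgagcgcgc
Jun, chr4:95052223-95052372, minus strand: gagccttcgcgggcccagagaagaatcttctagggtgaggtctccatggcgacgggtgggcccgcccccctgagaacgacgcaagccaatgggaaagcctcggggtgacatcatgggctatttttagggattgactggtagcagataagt

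RefSeq promoter windows, from 250 bases before to 50 after the start, were on hand for 8 of the 10 genes, not for Egr1 or Ier2. The CRE core was found on either strand in 6 of these 8 (Fos, Fosb, Junb, Atf3, Klf4 and Dusp1), and in 20.8% of 32851 promoter windows of the whole table. The full CRE, which contains the core, was found in Dusp1 and in 1.79% of windows. Serum response factor binds the CArG box, which was in none of the 8 and in 1.63% of windows. The AP-1 site TGANTCA was in none of the 8 and in 7.81% of windows, and the EGR site was in none of the 8 and in 0.612% of windows. A match is a description of these letters, and no match says nothing of near matches in the window or of sites outside it.

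The members spanned a wide range of levels. In RNA-seq the median over 24 pools was 23.9 RPKM for Jun, 21.7 for Dusp1, 17.5 for Klf6, 10.9 for Junb, 5.52 for Ier2, 2.86 for Klf4, 1.70 for Egr1, 1.34 for Atf3 and 0.654 for Fos. Neighbours in this order differed by less than the SD of their log2 difference over pools for Jun and Dusp1, Dusp1 and Klf6, Klf4 and Egr1, Egr1 and Atf3, and Atf3 and Fos. Jun was above Dusp1 in 14 of 24 pools, whereas Junb was above Ier2 in 24 of 24.
In RPF-seq the order of medians was Jun (33.2 RPKM), Klf6 (23.9), Dusp1 (15.8), Junb (9.13), Egr1 (2.76), Klf4 (1.79), Atf3 (1.24) and Fos (0.580). Here neighbours from Egr1 downwards differed by less than that SD. The low genes rested on few reads, with a median of 12 RNA reads per library for Fos and 10.5 for Atf3, against 416.5 for Jun. In whole tissue, fewer cells that express a gene and less RNA per cell cannot be told apart.

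**Figure D1:**
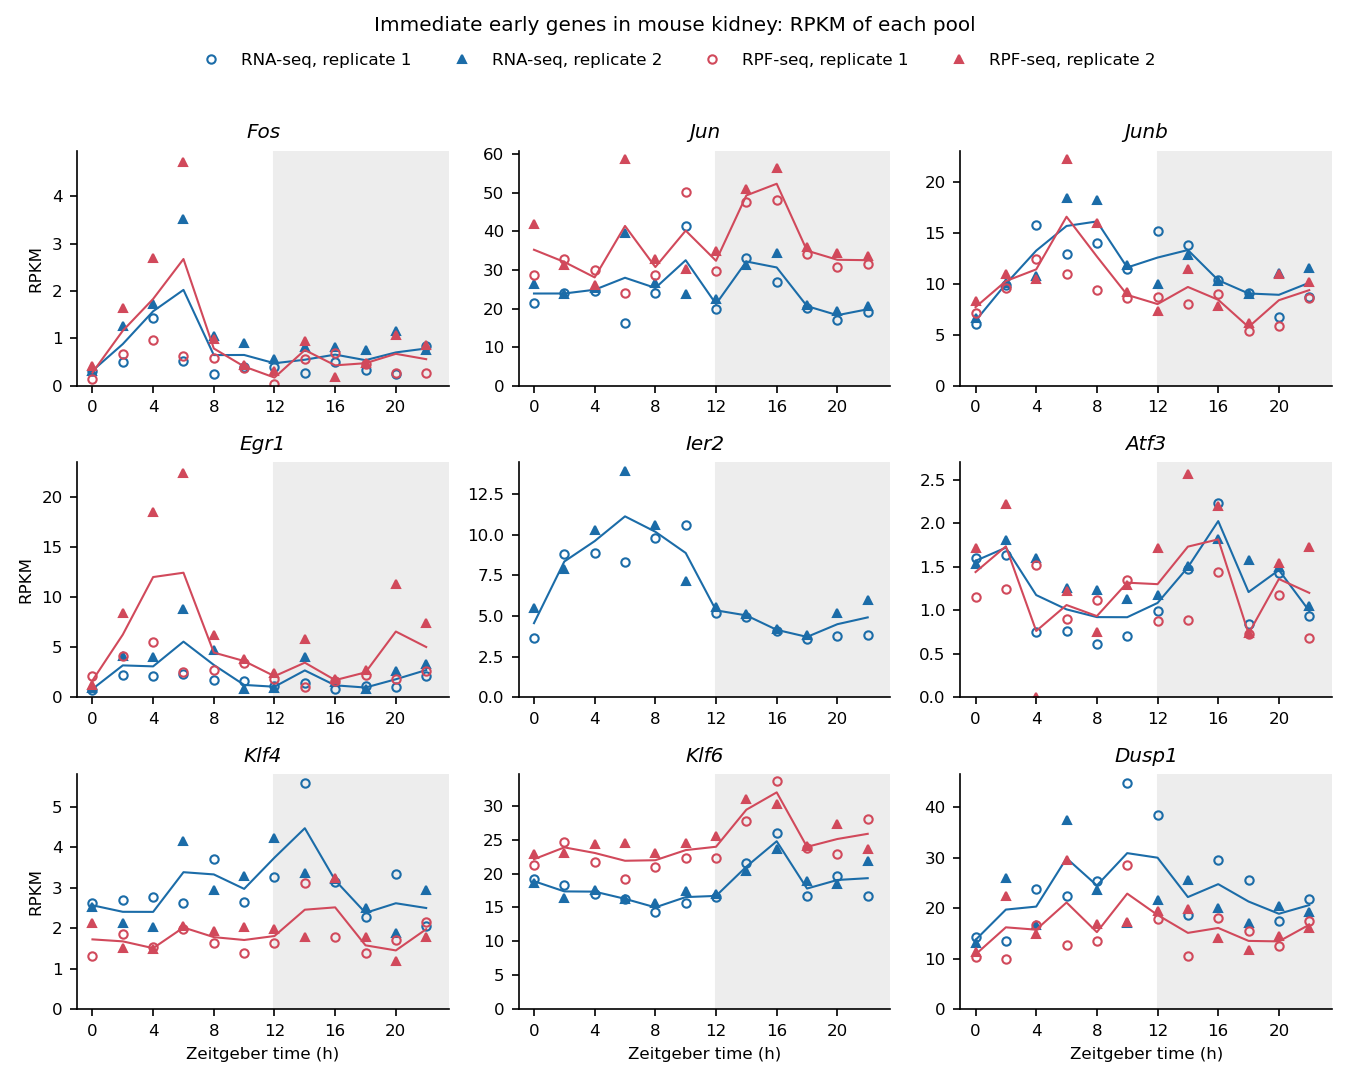
RPKM on the coding sequence (y axis) against Zeitgeber time in h (x axis, darkness shaded) for the 9 listed members, with open circles for replicate 1, filled triangles for replicate 2 and lines through the mean of both, RNA-seq in blue and RPF-seq in red. Ier2, with RNA-seq alone, rises to a broad daytime maximum. Fos and Egr1 differ most between the 2 pools of ZT06, where they reach 3.53 and 8.79 RPKM in RNA-seq. At ZT04 both RNA-seq pools of Fos are high (1.43 and 1.72 RPKM).

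The question put to each member was whether it followed a daily curve or stood high in single pools. A 24-h curve was called where limma's moderated F test gave an FDR (Benjamini-Hochberg over all tested genes) under 0.05 and the fitted peak-to-trough fold was at least 1.5. Of the 8 members tested, Junb, Klf4 and Dusp1 passed in RNA-seq, where 10.2% of all tested genes did, and Junb alone passed in RPF-seq, where 7.58% did. A timepoint factor of any shape was called for Klf6 and Junb in RNA-seq, against 31% of all tested genes, and for 0 of 8 in RPF-seq, against 12.8%. At an unadjusted p under 0.05 in that last limma test, Klf6 and Junb passed, as did 30.8% of all tested genes.

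Ier2 had the clearest daily curve of the 9. Its product is a small nuclear protein induced by growth signals. In the RNA-seq table taken alone, a fit added after the values were seen because RPF-seq does not list the gene, its fold was 2.73 with a peak at 6.32 ± 0.387 h (SE) and an FDR of 1.64e-07 by limma. Of the genes in that table, 12404 in all, 10.7% were called. The timepoint factor of Ier2 had an FDR of 0.000682, against 29.6% of genes called. At ZT02 its 2 pools had 8.83 and 7.88 RPKM, at ZT04 8.90 and 10.3, at ZT06 8.33 and 13.9, at ZT08 9.77 and 10.6, and at ZT10 10.6 and 7.18. The 14 pools of the other timepoints lay between 3.58 and 5.99 RPKM. The 10 pools from ZT02 to ZT10 were thus all above the 14 others, which held for 0.121% of the 12404 genes, and this division was chosen after the values were seen. Leaving out the highest pool, ZT06 replicate 2, gave a fold of 2.58 and an FDR of 6.16e-07.

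Junb, a partner of Fos in AP-1, was rhythmic in both assays. Its RNA was 6.11 and 6.66 RPKM at ZT00, 12.9 and 18.4 at ZT06, and 14.1 and 18.2 at ZT08. The 2 pools of ZT00 were the lowest of the 24. The fitted fold was 1.76 (log2 0.81 ± 0.16 SE) with a peak at 9.05 ± 0.754 h and an FDR of 0.000799 by limma. Footprints ran from 5.40 RPKM at ZT18 replicate 1 to 22.2 at ZT06 replicate 2, with a median of 9.13. The 3 highest libraries were ZT06 replicate 2, ZT08 replicate 2 at 15.96 RPKM and ZT04 replicate 1 at 12.4. The fitted fold was 1.72 (log2 0.78 ± 0.19 SE), the peak was at 5.99 ± 0.915 h and the FDR was 0.00806.

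The ratio of footprints to RNA within a pool, a measure of translation efficiency (TE), also followed a daily curve for Junb. It was 1.17 and 1.24 in the 2 pools of ZT00 and 0.572 and 0.736 in those of ZT12, and the values of these timepoints did not overlap. The fitted fold was 1.54 with a peak at 1.32 ± 0.793 h and an FDR of 0.00782 by limma, against 3.74% of all tested genes called. Both curves of Junb were fitted to the same 24 pools, so this test of the ratio is the test of their difference. The fold of the ratio fell to 1.49, just under the minimum, when ZT00 replicate 2, ZT12 replicate 1 or ZT14 replicate 1 was left out, with an FDR of at most 0.0174. Jun, the other Jun subunit among the members, had a ratio fold of 1.41 with a peak at 18.2 ± 0.595 h and an FDR of 0.0011, below the fold minimum. At an FDR under 0.05 with any fold, 17.1% of tested genes were called. Its ratio was between 1.43 and 1.80 in the 12 pools from ZT12 to ZT22 and between 1.03 and 1.59 in the 12 from ZT00 to ZT10. The replicate SD of this ratio was 0.09 in log2 units for Jun, which is at the 5.01th percentile of tested genes, while the SD of Jun itself was 0.33 in RNA-seq and 0.34 in RPF-seq.

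**Figure D2:**
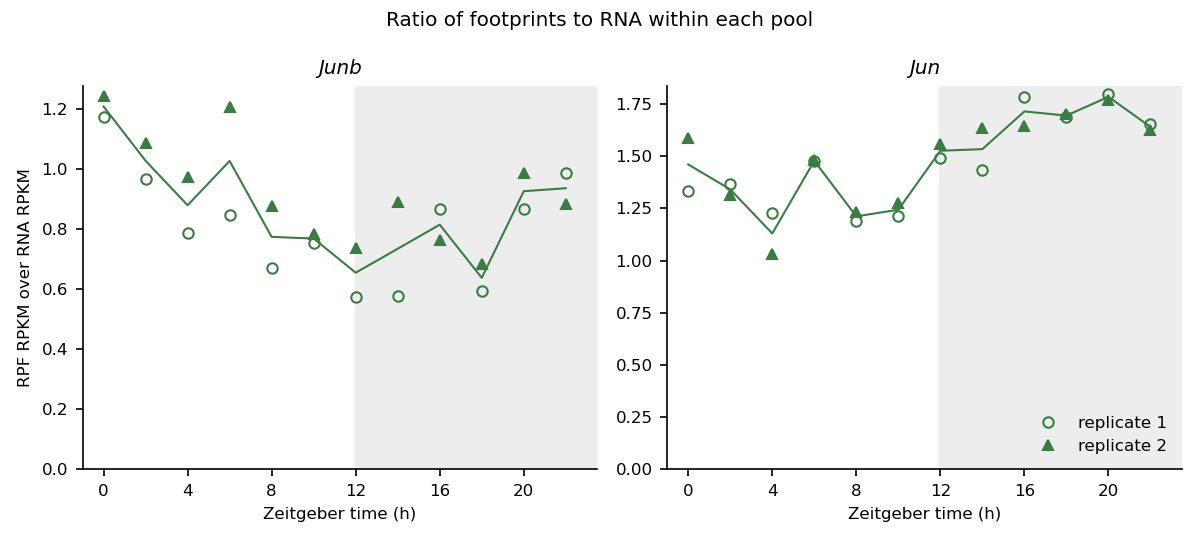
RPF-seq RPKM divided by RNA-seq RPKM (y axis, from 0) against Zeitgeber time in h (x axis, darkness shaded) for Junb and Jun, each point 1 pool and the line through the mean of both replicates. The mean ratio of Junb is highest at ZT00 (1.17 and 1.24), and that of Jun at ZT20 (1.80 and 1.77).

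Klf4, a factor of epithelial differentiation, had 1.89 to 5.59 RPKM in RNA-seq with a median of 2.86. Its 2 pools of ZT14 had 5.59 and 3.35 RPKM and those of ZT18 had 2.27 and 2.49. The RNA fold was 1.54 with a peak at 11.7 ± 0.997 h and an FDR of 0.00932 by limma, and the fold fell below the minimum without ZT14 replicate 1 (1.43), ZT12 replicate 2 or ZT20 replicate 2 (1.49 each), and with a pseudocount of 1 (1.39). Its footprint fold was 1.22 with an FDR of 0.435. Dusp1 had an RNA fold of 1.61, a peak at 10.8 ± 1.151 h and an FDR of 0.0251, but its replicates lay far apart at that time. At ZT10 they had 44.8 and 17.0 RPKM, and without ZT10 replicate 1 the fold was 1.47 and the FDR 0.0688. The RNA call of Dusp1 was also lost without ZT00 replicate 1, ZT00 replicate 2 or ZT12 replicate 1, where the FDR was between 0.0519 and 0.0611. Its footprint fold was 1.41 with an FDR of 0.156.

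Klf6, a factor of the same family expressed in many tissues, was the steadiest member. Its RNA was 21.6 and 20.4 RPKM at ZT14 and 25.96 and 23.6 at ZT16, and of the 20 other pools ZT22 replicate 2, at 21.9, alone exceeded 20. Footprints at ZT14 and ZT16 were between 27.8 and 33.7 RPKM, against 19.3 to 28.1 in the 20 others. The fitted folds were 1.29 in RNA-seq (peak 18.1 ± 0.92 h, FDR 0.00498) and 1.26 in RPF-seq (peak 16.5 ± 0.984 h, FDR 0.0136), under the fold minimum in both assays. At an FDR under 0.05 with any fold, limma called 48.6% of tested genes for RNA and 30.9% for footprints.

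The remaining members missed the threshold. Egr1 had the largest fitted folds, 2.36 in RNA-seq (log2 1.24 ± 0.43 SE, peak 4.77 h) and 2.90 in RPF-seq (log2 1.54 ± 0.54 SE, peak 4.06 h), with FDRs of 0.0569 and 0.0782 by limma. Its call changes with the fit, since with the replicate number as a term limma gave FDRs of 0.0385 and 0.0301, and without ZT04 replicate 2 0.104 and 0.174. Fos had folds of 1.817 and 2.67 with FDRs of 0.228 and 0.112. Jun had folds of 1.35 and 1.39 with FDRs of 0.104 and 0.0991. Atf3, a stress-induced factor, had folds of 1.46 and 1.55 with FDRs of 0.133 and 0.564, and its RPF fold was 1.04 with an FDR of 0.986 without the ZT04 replicate 2 library. A missed threshold does not show that these genes had no daily curve, given how far their replicates lay apart.

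Egr1 and Fos stood out for the distance between the 2 pools of a timepoint. Egr1 RNA had a lowest value of 0.705 RPKM, a median of 1.70 and a highest of 8.79, and its footprints 1.08, 2.76 and 22.4. At ZT06 the 2 pools had 2.34 and 8.79 RPKM for RNA and 2.52 and 22.4 for footprints. At ZT04 they had 2.16 and 4.04 for RNA and 5.49 and 18.5 for footprints, and at ZT20 1.03 and 2.60 for RNA and 1.86 and 11.3 for footprints. In each of these pairs replicate 2 was the higher pool in both assays. The same pool of Egr1 was the higher in both assays at 8 of 12 timepoints, and not at ZT00, ZT10, ZT12 and ZT18. Fos RNA was 0.521 and 3.53 RPKM at ZT06, on 10 and 65 reads, and its footprints were 0.628 and 4.73, on 22 and 130 reads. At ZT04 Fos RNA was 1.43 and 1.72 and its footprints were 0.969 and 2.70.

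The pool ZT06 replicate 2 was the highest of the 24 in both assays for Fos, Egr1 and Junb, and in the assay concerned for Ier2 (13.9 RPKM of RNA) and for Jun and Dusp1 (58.7 and 29.5 RPKM of footprints). It was the highest pool for 4 of 9 members in RNA-seq, as for 2.84% of all tested genes, and for 5 of 8 in RPF-seq, as for 4.55%. It was among the 3 highest pools for 7 of 9 members in RNA-seq, as for 11.3% of all tested genes, and for 5 of 8 in RPF-seq, as for 14.8%. Against replicate 1 of the same timepoint, Fos was 6.78-fold higher in RNA-seq, the largest ratio of 12292 genes with at least 0.5 RPKM in both pools, and Egr1 was 8.87-fold higher in RPF-seq, the largest of 11977 genes. Egr1 ranked 3 in RNA-seq at 3.76-fold and Fos ranked 4 in RPF-seq at 7.54-fold. The ratios of Jun were 2.43 and 2.44, those of Dusp1 1.67 and 2.31, those of Junb 1.42 and 2.03, and those of Klf6 1.00 and 1.27. The median ratio over all genes was 0.999 in both assays. These are ratios of 2 pools, with no replicate check, and the timepoint was picked after the values were seen.

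Other lists were read in the same pool. The 37 other immediate early genes listed in RNA-seq summed to 925 RPKM there (rank 12 of 24 pools), and the 35 listed in RPF-seq to 1141 (rank 6). The members' own sum ranked 1 in both assays, but the pool was picked because they were high in it. A sum of RPKM weighs the abundant genes of a list most, so its low genes hardly count. The 7 blood cell markers listed summed to 385 RPKM in RNA-seq (rank 8 of 24 pools, range 245 to 581) and to 923 in RPF-seq, the highest of the 24, against 895 in replicate 1. The 4 adipose markers listed summed to 22.1 RPKM in RNA-seq, rank 3 with a median of 9.80 and a range of 2.36 to 47.9, and to 50.4 in RPF-seq, rank 4 with a median of 22.6, while replicate 1 had 30.9 in RNA-seq. The 3 adipose markers tested, Adipoq, Cfd and Cidec, were rhythmic in both assays, with RNA peaks between 3.95 and 4.996 h, near the fitted peaks of Egr1 and Fos. The 8 heat shock genes summed to 1656 RPKM (rank 20, range 1471 to 3116), and the 7 smooth muscle and endothelial markers to 222 (rank 12, range 194 to 261). Neither adipose Lep nor the haemoglobin genes Hbb-b1, Hbb-b2 and Hbb-bs were listed. The part of other cell types in the levels of this pool was not tested.

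**Figure D3:**
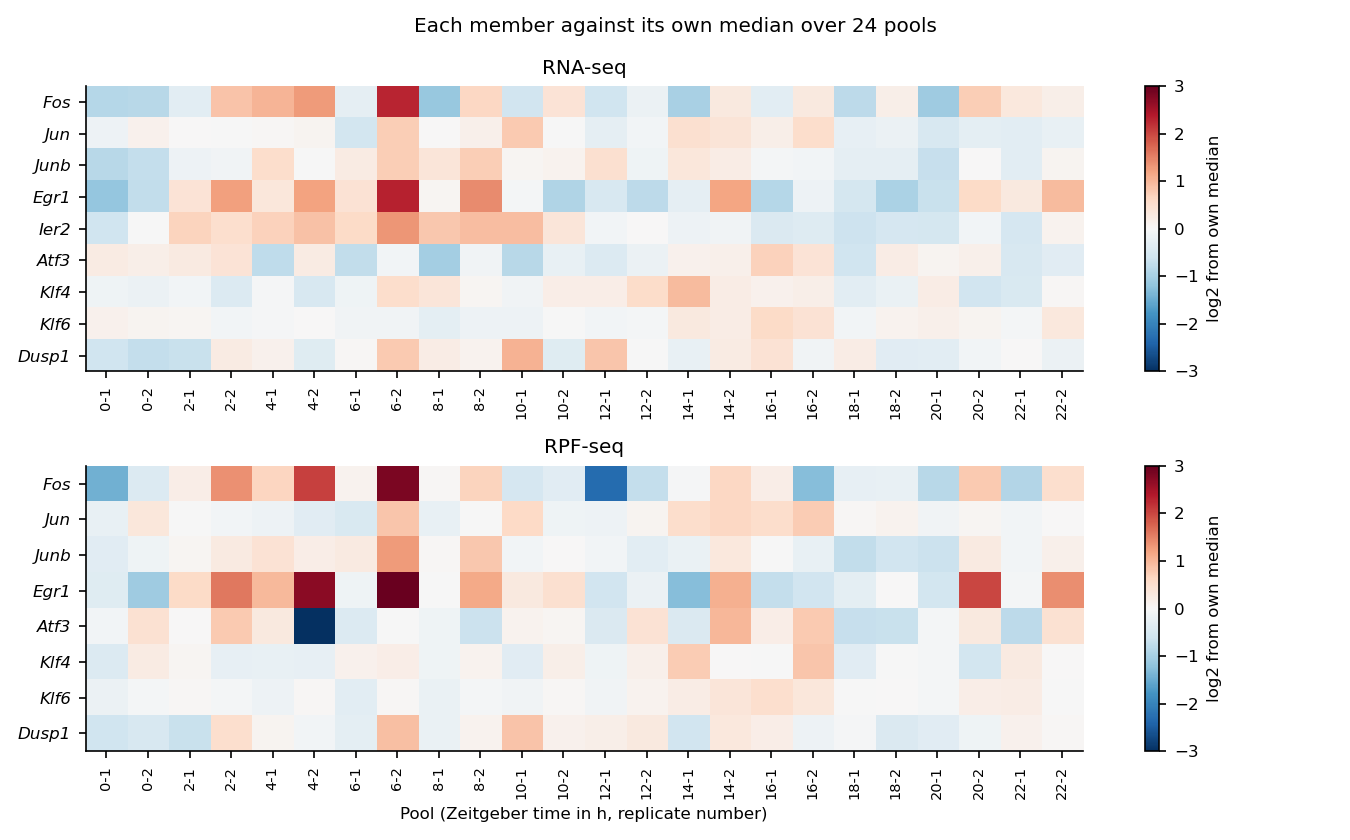
Log2 difference of each member from its own median over 24 pools (colour, from blue at 3 below to red at 3 above, where it saturates) for each pool (x axis, Zeitgeber time in h and replicate number), RNA-seq above and RPF-seq below. The column of ZT06 replicate 2 is red for Fos, Egr1 and Junb in both assays, and the dark blue cell of Atf3 is the RPF-seq library of ZT04 replicate 2, where it had 0 reads.

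A log2(RPKM + 0.1) at least 1 above the member's own median, about 2-fold, was counted as a burst, and a burst in both libraries of a pool as shared. There were 9 bursts in RNA-seq, 11 in RPF-seq and 7 shared ones. Egr1 had shared bursts in 5 pools, ZT02, ZT04, ZT06, ZT08 and ZT14, each in replicate 2, and Fos in ZT04 and ZT06 replicate 2. Thus 2 of 8 members had a shared burst, against 0.809% of all tested genes. The other bursts had no counterpart past 2-fold in the other assay. In RNA-seq these were Fos at ZT04 replicate 1 and Dusp1 at ZT10 replicate 1. In RPF-seq they were Fos at ZT02 replicate 2, Junb at ZT06 replicate 2, and Egr1 at ZT20 and ZT22 replicate 2. Over all tested genes, shared bursts fell 104 times in pools numbered 1 and 126 times in pools numbered 2, and those of the members 0 and 7 times. With a 3-fold limit, 2 shared bursts were left, those of Fos and Egr1 in ZT06 replicate 2, against 0.219% of all tested genes with any. Without the pool ZT04 replicate 2, and with medians over the other pools, 6 shared bursts were left in Fos and Egr1, against 0.767% of all tested genes with any. The shares for a limit set from the mean and for a pseudocount of 1 were 0.784% and 0.539%, with 5 and 2 shared bursts among the members.

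Replicate numbers were also compared over all timepoints, which include the pools of the shared bursts, and no member passed. The labels do not tie pools of the same number to each other, so this comparison has no defined batch behind it. Fos RNA was higher in replicate 2 at 11 of 12 timepoints (log2 0.98 ± 0.25 SE, unadjusted p = 0.000557 and FDR 0.648 by limma), and its footprints likewise at 11 of 12 (log2 0.91 ± 0.34 SE, FDR 0.746). Egr1 footprints were higher at 11 of 12 (log2 1.13 ± 0.31 SE, FDR 0.5) and its RNA at 9 of 12 (FDR 0.648). Dusp1 RNA was higher in replicate 2 at 4 of 12 timepoints (log2 -0.16 ± 0.15 SE, FDR 0.702). None of the 11863 genes was called in either assay by this limma comparison, 0%, and 844 in RNA-seq and 723 in RPF-seq had an unadjusted p under 0.05. The comparison was added after the values were seen.

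The spread between pools was measured for each member as the replicate SD, the SD of the log2 values of the 2 pools of a timepoint pooled over 12 timepoints. It was 0.88 for Fos, 0.72 for Egr1, 0.47 for Dusp1, 0.38 for Atf3, 0.33 for Jun, 0.32 for Klf4, 0.27 for Junb and 0.11 for Klf6 in RNA-seq, against a median of 0.14 over all tested genes. Fos and Egr1 lay at the 99.8th and 99.7th percentile of tested genes and Klf6 at the 26.7th. In RPF-seq it was 1.11 for Egr1, 0.96 for Atf3, 0.95 for Fos, 0.44 for Dusp1, 0.35 for Junb, 0.34 for Jun, 0.33 for Klf4 and 0.13 for Klf6, against a median of 0.16. In each assay 4 of 8 members were in the top 5% of genes (5.01%), Fos, Egr1, Atf3 and Dusp1.

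Counting error was set beside these values. The SD expected from counting the reads was 0.47 for Fos and 0.46 for Atf3 in RNA-seq, so that of Atf3 (0.38) did not exceed counting error. For Egr1 it was 0.24 against a measured 0.72, for Dusp1 0.08 against 0.47 and for Jun 0.08 against 0.33. Among genes of the same decile of expression, the RNA SDs of Dusp1, Egr1, Fos and Jun were above at least 98.8% of genes, and that of Atf3 was above 68.9%. The footprint SD of Atf3 fell from 0.96 to 0.53 without ZT04, where the replicate 2 library had 0 reads, a count that allows up to 0.284 RPKM (3 reads). Without ZT06 the RNA SD of Fos was 0.74, that of Egr1 0.64 and that of Jun 0.21.

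The share of variance that lay between timepoints in RNA-seq was 44.1% for Fos, 44.4% for Dusp1, 54.1% for Jun, 58.8% for Klf4, 63.1% for Atf3, 67.1% for Egr1, 77.8% for Junb and 85.0% for Klf6, with a median of 67.7% over all tested genes. Ier2, in the RNA table alone, had 88.0%. In RPF-seq 6 of 8 members were below the median of 61.8%, and Klf6 (74.8%) and Junb (66.1%) were above it. These shares are not corrected for chance, since the means of few pools differ even for a gene with no effect of time. A share is therefore not the part of the variance due to time of day. By limma, the timepoint factor in RNA-seq had an FDR of 0.461 for Fos, 0.415 for Dusp1 and 0.220 for Jun.

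**Figure D4:**
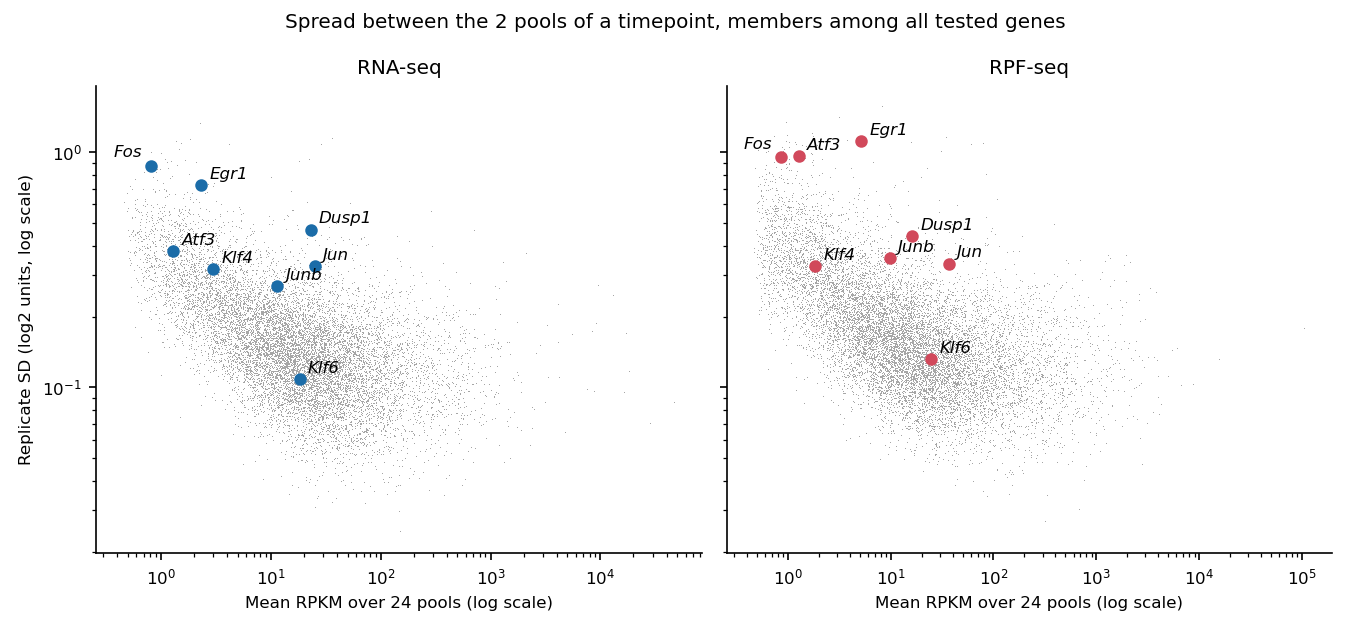
Replicate SD in log2 units (y axis, log scale) against the mean RPKM over 24 pools (x axis, log scale), with 1 grey dot per tested gene and the 8 tested members in colour, RNA-seq left and RPF-seq right. Fos, Egr1 and Dusp1 sit above nearly all genes of their level in both assays, and Klf6 sits within the cloud (0.11 and 0.13).

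Both libraries of a pool were made from 1 lysate pool, so the assays can be compared pool by pool. For each gene the difference of replicate 1 and replicate 2 in log2 RPKM was taken at the 12 timepoints in each assay. The main test, an exact two-sided sign-flip test of the summed products of both differences, called 0 of 11863 genes at an FDR under 0.05, 0%. Its smallest possible p is 0.000488 and 42 genes reached it, so the smallest FDR was 0.138. At an unadjusted p under 0.05 with a positive sum, 5 of 8 members passed, against 12.5% of all tested genes. These were Jun (p = 0.0083, exact), Egr1 and Dusp1 (both p = 0.0151, exact), Junb (p = 0.0171, exact) and Fos (p = 0.0337, exact), with FDRs between 0.225 and 0.335.

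A permutation test of the correlation of the 12 pairs, with 100000 resamples and added after the values were seen, has a finer scale. It asks a different question, because a correlation is taken about the mean difference. A correlation therefore changes with which pool of a timepoint is numbered 1, whereas the summed products do not. By the permuted correlation Dusp1, Jun and Junb passed at an FDR under 0.05 with a positive r, as did 2.87% of all tested genes. For Dusp1 Pearson's r was 0.92 (n = 12, permutation p = 3e-05, FDR 0.00583) and Spearman's rho 0.92 (permutation p = 6e-05). For Jun r was 0.96 (permutation p = 0.00012, FDR 0.0126) and rho 0.87 (permutation p = 0.00032). For Junb r was 0.83 (permutation p = 0.00076, FDR 0.0362) and rho 0.79 (permutation p = 0.00306). For Egr1 r was 0.75 (permutation p = 0.00569, FDR 0.106) and rho 0.78 (permutation p = 0.00393). By rho 2 members passed, Dusp1 and Jun, against 1.3% of all tested genes. The median r over all tested genes was 0.26.

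Without the 2 timepoints farthest from the median RNA difference, r was 0.86 for Dusp1, 0.69 for Jun, 0.74 for Junb and 0.76 for Egr1. For Jun those timepoints were ZT06 and ZT10, where replicate 1 minus replicate 2 was -1.28 and 0.80 for RNA and -1.28 and 0.73 for footprints, so the size of both differences was nearly the same in the 2 assays. At the same timepoints Dusp1 had -0.74 and 1.40 for RNA and -1.20 and 0.73 for footprints. Fos had an r of 0.30 (permutation p = 0.343), and without ZT06 it was -0.06, so its r rests on that timepoint. Pearson's r takes no account of a difference shared by all timepoints. The differences of Fos had the same sign in both assays at 10 of 12 timepoints. Without ZT06 its summed products were 6.44 (p = 0.0674 by the exact sign-flip test, FDR 0.453), against 13.4 with it. For Klf4 r was 0.50 (permutation p = 0.0973) and 0.03 without the 2 farthest timepoints, and for Klf6, whose replicates hardly differed, it was -0.26 (permutation p = 0.411). Atf3 had a negative r of -0.68 (permutation p = 0.0014, FDR 0.0491). Without ZT04 it was -0.69, and without ZT04 and ZT08 -0.56. The main test did not call Atf3 (p = 0.579 by the exact sign-flip test, FDR 0.844). Its differences had the same sign in both assays at 7 of 12 timepoints. Without ZT04 its summed products were positive, at 0.142 (p = 0.844 by the exact sign-flip test). The r of Atf3 rests on a median of 10.5 RNA reads and 16 footprint reads per library.

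**Figure D5:**
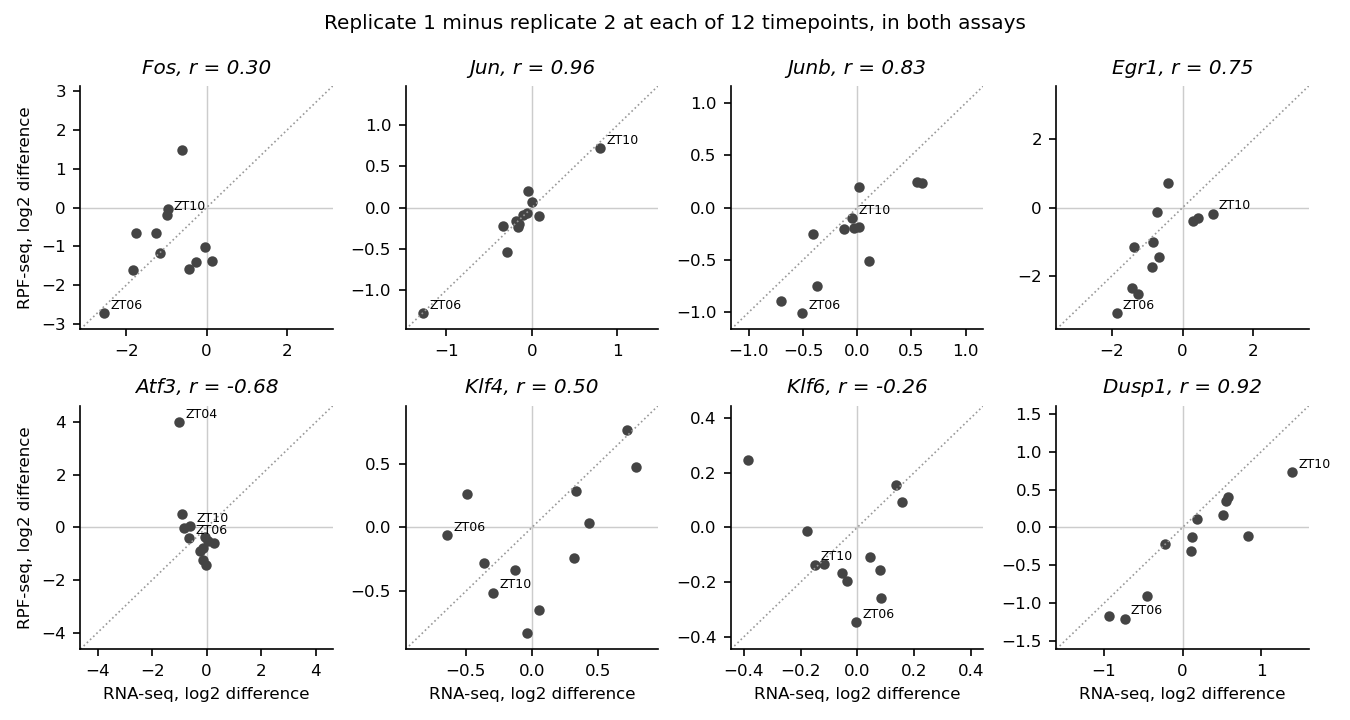
Log2 RPKM of replicate 1 minus replicate 2 in RPF-seq (y axis) against RNA-seq (x axis) for the 8 tested members, 1 point per timepoint, with the dotted line of equal differences. The points of Jun lie near the line, from ZT06 at the lower left to ZT10 at the upper right, those of Dusp1 rise together but with ZT10 (1.40 and 0.73) below the line, and those of Atf3 do not rise together (r = -0.68).

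Among the members, the level of footprints for a given level of RNA differed widely. The ratio of mean RPF-seq to mean RNA-seq RPKM was 2.23 for Egr1, at the 97.4th percentile of tested genes, 1.47 for Jun, 1.35 for Klf6, 1.04 for Fos, 0.99 for Atf3, 0.85 for Junb, 0.71 for Dusp1 and 0.62 for Klf4, with a median of 0.96 over all tested genes. The mean of Egr1 footprints, 5.16 RPKM, was above their median of 2.76, with ZT06 replicate 2 (22.4) and ZT04 replicate 2 (18.5) highest. Within pools the ratio of Egr1 had a median of 1.90. It ran from 0.767 at ZT14 replicate 1 to 4.59 at ZT04 replicate 2, the library that stands apart. The next highest was 4.46 at ZT10 replicate 2. The replicate SD of this ratio was 0.62, at the 97.3th percentile.

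The wider list of immediate early genes held 46 others, of which 35 were tested. Of these, 14 were rhythmic in RNA-seq, against 10.2% of all tested genes, and 11 in RPF-seq, against 7.58%, while none passed in TE (0 of 35 by limma, against 3.74%). The 6 largest RNA folds were those of Ier3 (2.80, peak 15.1 h), an apoptosis modulator, the kinase gene Plk3 (2.26, peak 14.2 h), the cytoskeletal gene Arc (2.13, peak 10.5 h), the nuclear receptor gene Nr4a1 (2.09, peak 8.76 h), Klf2 (1.823, peak 12.4 h) and the matricellular gene Ccn2 (1.80, peak 14.6 h). Their FDRs by limma were between 2.61e-06 and 0.00615. Ier3, Plk3 and Ccn2 were also rhythmic in RPF-seq, with folds of 2.22, 2.17 and 2.13. The 6 largest RNA replicate SDs were those of Nr4a1 (0.50), Maff (0.48), Gadd45g (0.47), Arc (0.42), Ier3 (0.40) and Myc (0.39), all smaller than those of Fos and Egr1. The median r between the assays' replicate differences was 0.58 over the 35 genes and 0.62 over the 8 members.

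Of the 23 kinases and factors listed as known to act upstream, all were tested and none was rhythmic in RNA-seq at the fold minimum (0 of 23 by limma), although 11 had a timepoint factor called, against 31% of all tested genes. In RPF-seq Elk1 was called (2.12-fold, FDR 0.0191), and in TE Mapk8, the gene of the kinase JNK1 (1.51-fold, FDR 0.00736), both named because they were the lone calls of the list. The 6 largest RNA replicate SDs in this list were those of Mapk8 (0.20), Crem (0.19), Atf1 (0.18), Mrtfb (0.17), Creb1 (0.17) and Elk3 (0.16). The median over the list was 0.13 against 0.35 over the 8 members and 0.14 over all tested genes.

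The genes most like the members were found by Pearson's r over the 24 RNA-seq libraries with the mean of the members' standardised log2 values, as a description with no test. The 10 highest that are no members were Dok3 (0.75), Stat3 (0.68), Nr4a1 (0.68), Csrnp1 (0.67), Capg (0.66), Btg2 (0.65), Pcolce (0.65), Rusc2 (0.64), Got2 (0.63) and Lmo7 (0.63). Over the RPF-seq libraries their r with the members' mean there was between 0.38 for Got2 and 0.74 for Pcolce. Nr4a1, Csrnp1 and Btg2 are on the wider list of immediate early genes. Without the 2 pools of ZT06, 4 of these 10 were again among the 10 highest (Lmo7, Got2, Dok3 and Btg2), and Lmo7 led with 0.84.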

How the data were processed

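RNA-seq and RPF-seq were measured in 24 pools of mouse kidney, 48 libraries. Per the study's methods and the submitters' processing notes, reads were trimmed with Cutadapt, filtered by size, mapped with Bowtie2 2.2.1 and TopHat2 2.0.11 (build GRCm38.p2), and assigned to coding sequences, with transcript models from Cufflinks 2.2.1. The authors deposited RPKM values, upper quantile normalised with edgeR, so they do not show changes in total mRNA. Genes under a cutoff of the authors are not in the tables used here.

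From there, symbols were matched by Ensembl ID (75 RNA-seq and 53 RPF-seq IDs had none), and coding lengths came from GENCODE vM21. Between 98.4% and 98.9% of single-length genes with 1 to 200 reads gave a whole number of reads (within 0.05) in each library, so reads per value are known. No count test was run, because the unit is RPKM. Genes with a median of at least 0.5 RPKM in both assays were tested as log2(RPKM + 0.1) with limma 3.58.1 in R 4.3.3 (eBayes with trend), for the 24-h cosine and sine, a 12-level timepoint factor, and TE as the log2 ratio within a pool. Folds are on that scale and understate changes of low genes. Benjamini-Hochberg adjustment ran over all tested genes. Sign-flip tests enumerated every pattern over 12 timepoints, and correlations used 100000 permutations (Python 3.11.15, scipy 1.17.1). The curve fits, the timepoint factor and the sign-flip test were checked on simulated data with normal noise, which does not mimic low read counts. The permuted correlations and the comparison of replicate numbers were not checked in this way. Replicates are pools of different mice.

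The pools pair the 2 assays: across genes, replicate differences in RNA-seq and RPF-seq correlated at every timepoint (r 0.11 to 0.45). Members, lists and tests were chosen with earlier results of these data known. Named genes are all members, the 6 rhythmic genes of largest RNA fold and the 6 of largest RNA replicate SD in the lists of other immediate early genes and upstream factors, and the 10 genes most like the members. Permuted correlations, the fit of Ier2, the comparison of replicate numbers, the likeness without ZT06 and the bursts without ZT04 replicate 2 were added after seeing the data. Other settings tried were another pseudocount (1 or 0.01), another RPKM minimum (2, or none at all), quantile normalisation, a replicate block, an FDR of 0.01, no fold minimum, AIC, a 12-h harmonic, signed ranks, other burst limits, and each pool or replicate series left out.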

Additional observations from a re-analysis of the deposited data

Results flagged for a closer look

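The daily curves of footprints and RNA differed for 2 members, by the test of their ratio within each pool at an FDR under 0.05 and any fold, which calls 17.1% of all tested genes. For Junb the ratio had a fold of 1.54 and an FDR of 0.00782 by limma, and over all alternatives that kept all or all but 1 of the pools its fold stayed between 1.48 and 1.62 with an FDR of at most 0.0336. For Jun the ratio had a fold of 1.41, under the fold minimum, and an FDR of 0.0011 by limma, and over the same alternatives the fold stayed between 1.37 and 1.46 with an FDR of at most 0.00605. With 1 replicate series left out, the FDRs were 0.118 and 0.199 for Junb and 0.115 and 0.177 for Jun, and at most 2 of all tested genes passed then.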

How the results depend on the processing

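With replicate series 1 left out, 0 of 8 members were called rhythmic (RNA, footprints or TE), and with series 2 left out 2, 2 and 0 were, against 3, 1 and 1 with all pools (12 libraries each, so fewer samples). Of all tested genes, 6.09%, 3.12% and 0% were called without series 1, and 12.1%, 7.19% and 0.0169% without series 2. With each pool left out in turn, the RNA count ran from 2 to 4, the RPF count from 1 to 2, the TE count from 0 to 1, the RNA timepoint factor count from 2 to 4 and the RPF timepoint factor count from 0 to 2. Without ZT06 replicate 1, Egr1 and Jun joined Klf6 and Junb in the RNA timepoint factor, and Jun and Junb were called in RPF-seq. Without ZT06 replicate 2, Jun and Klf6 were called in the RPF timepoint factor and Jun in the RPF rhythm, with a fold of 1.51 and an FDR of 0.0104. Without ZT04 replicate 1, Atf3, left with the library at 0 reads, was called in the RPF timepoint factor.

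Across genes, the replicate differences of 2 timepoints had a mean correlation of 0.03 for RNA and 0.02 for footprints. It ran from -0.18 to 0.48 and from -0.20 to 0.19, and was over 0.1 in 13 and 10 of 66 pairs of timepoints. The mean alone does not show whether the replicate number pairs some timepoints. With a replicate block, 4 members were called rhythmic in RNA-seq and 2 in RPF-seq, with Egr1 added in both (FDR 0.0385 and 0.0301), 1 in TE, and 3 in the RNA timepoint factor. Over all tested genes, 10.2%, 7.54%, 3.84% and 34.7% were then called.

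With a pseudocount of 1 the TE count was 0 and the RNA count 2, and with no fold minimum the counts were 4 (RNA), 2 (footprints) and 2 (TE), against 48.6%, 30.9% and 17.1% of all tested genes. AIC gave 3 members in RPF-seq (9.06% of all tested genes) and an added 12-h harmonic 2 (10.6%), with Fos joining at an FDR of 0.0281. At an FDR of 0.01 the RNA timepoint factor called 1. The shared replicate differences had 0 members called, 3 by permuted r and 2 by permuted rho. Shared bursts fell from 7 to 2 with a 3-fold limit and to 2 with a pseudocount of 1, to 5 against the mean, and to 6 without ZT04 replicate 2. The median replicate SD over members stayed between 0.28 and 0.37 in RNA-seq and between 0.34 and 0.41 in RPF-seq. With an RPKM minimum of 2, 4 members were tested. The cause of these shifts was not tested. Low read counts limit Fos and Atf3.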

Other observations

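The footprint to RNA ratio of Dusp1 was higher in replicate 2 at 11 of 12 timepoints (log2 0.35 ± 0.07 SE, unadjusted p = 8.49e-05 and FDR 0.169 by limma). None of the 11863 tested genes passed in this comparison, which was added after seeing the data, and 1300 had an unadjusted p under 0.05.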
